A study of Mus musculus with 67 samples.

Results

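The genes described here are the fatty acid desaturases Scd1, Scd2, Scd3, Scd4, Fads1 and Fads2 and the fatty acid elongases Elovl1, Elovl2, Elovl3 and Elovl5. They were taken by symbol, and they are 10 of the 55450 genes in the deposited liver count files. Stearoyl-CoA desaturases (Scd) place the first double bond in saturated fatty acids and so make oleate and palmitoleate, while Fads1 and Fads2 add further double bonds to the essential fatty acids taken up from food. The elongases (Elovl) carry out the condensation step that lengthens a fatty acid in the endoplasmic reticulum. In mouse liver many of these genes are known targets of the lipogenic transcription factor SREBP-1c and of the oxysterol receptor LXR, and food intake changes their transcript levels.

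RNA was sequenced from 67 mouse livers, each from a separately numbered mouse that was wild type (WT) or of the Sestrin DKO line (genotype label Sesn2 DKO, called DKO below) and was fed control or leucine-free food for 24 hours (day 1) or for 8 days (day 8). On control food there were 7 WT and 8 DKO livers at day 1 and 5 WT and 5 DKO livers at day 8. On leucine-free food there were 12 WT and 18 DKO livers at day 1 and 6 WT and 6 DKO livers at day 8. Age, sex, time of day at collection and the alleles behind the genotype label are not stated in the labels used.

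Total counts per liver lay between 22814668 and 56916009. The hepatocyte markers were abundant in every library, with a lowest Alb level of 30934 CPM. Their summed level at day 1 was 97143 to 122379 CPM in WT control and 79228 to 114045 CPM in WT leucine-free livers. In DKO livers of day 1 it was 98007 to 116251 CPM on control and 61361 to 101220 CPM on leucine-free food. Of the 7 markers, 2 were lower and 0 higher on leucine-free food in WT livers of day 1 (adjusted p under 0.05 in edgeR). In DKO livers of day 1, 2 were lower and 2 higher. Of all genes, 11.2% were lower and 8.28% higher in WT, and 13.0% and 10.5% in DKO livers. The part of these shifts in the results of day 1 was not tested. Sesn1 levels of the genotypes did not overlap, at 9.24 to 22.2 CPM in WT and 3.49 to 7.68 CPM in DKO livers. Sesn2 reached 9.60 to 19.6 CPM in WT and 10.6 to 36.9 CPM in DKO livers, so its whole-gene count did not separate the genotypes. CPM are counts for each 1000000 of the TMM-scaled library size, TMM being a scaling that holds the bulk of genes level between libraries. No library held more than 1 count over 4 Y-linked genes, and Xist was counted in 66 of the 67 libraries, the exception being DKO leucine-free replicate 1 of day 1.

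The transcripts of the 4 Scd genes are so alike that reads can be shared between them, which bears on how Scd3 and Scd4 can be read. The 90 coding bases that start at the codons of a conserved histidine box are shown for this reason, on GRCm38, chromosome 19, from coding base 457 in Scd1, 466 in Scd2, 469 in Scd3 and 451 in Scd4. Capitals mark the bases that are unlike Scd1.
Scd1: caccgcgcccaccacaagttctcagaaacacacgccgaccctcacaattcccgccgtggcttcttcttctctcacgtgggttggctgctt
Scd2: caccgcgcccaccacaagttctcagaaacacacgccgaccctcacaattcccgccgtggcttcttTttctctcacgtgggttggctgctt
Scd3: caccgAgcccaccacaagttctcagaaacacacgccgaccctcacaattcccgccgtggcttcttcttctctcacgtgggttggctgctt
Scd4: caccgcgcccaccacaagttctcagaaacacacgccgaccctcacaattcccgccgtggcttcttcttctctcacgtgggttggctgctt

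Over this stretch Scd2 and Scd3 each differed from Scd1 at 1 base and Scd4 at 0. Over the whole coding sequence Scd1 was 90.4% identical to Scd2, 91.5% to Scd3 and 86.1% to Scd4. Of all 50-base windows of the Scd1 transcript, 4.56% occur in another of the 4 transcripts, and of those of Scd3 6.26% do. Counts of Scd3 and Scd4 are therefore uncertain where the counting could place such reads on another copy.

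The promoters of Fads2, Elovl5 and Elovl2 are shown because Fads2 and Elovl5 varied together among livers of the same group, whereas the Elovl5 to Elovl2 ratio was lower on leucine-free food. The sequences are from RefSeq on GRCm38.p6 and run from 250 bases before to 50 bases after the start, in the direction of transcription. They lie at chr19:10101454-10101753 on the minus strand (Fads2), chr9:77917115-77917414 on the plus strand (Elovl5) and chr13:41220354-41220653 on the minus strand (Elovl2). Capitals mark matches, on either strand, to the E-box CACGTG, the CCAAT box CCAAT and the GC box GGGCGG. No matches overlapped in these windows.
Fads2: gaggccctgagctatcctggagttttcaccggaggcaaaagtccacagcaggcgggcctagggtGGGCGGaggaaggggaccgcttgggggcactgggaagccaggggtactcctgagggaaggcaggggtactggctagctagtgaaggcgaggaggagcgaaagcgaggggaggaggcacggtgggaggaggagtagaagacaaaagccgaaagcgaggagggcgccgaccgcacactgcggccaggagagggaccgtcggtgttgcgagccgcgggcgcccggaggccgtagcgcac
Elovl5: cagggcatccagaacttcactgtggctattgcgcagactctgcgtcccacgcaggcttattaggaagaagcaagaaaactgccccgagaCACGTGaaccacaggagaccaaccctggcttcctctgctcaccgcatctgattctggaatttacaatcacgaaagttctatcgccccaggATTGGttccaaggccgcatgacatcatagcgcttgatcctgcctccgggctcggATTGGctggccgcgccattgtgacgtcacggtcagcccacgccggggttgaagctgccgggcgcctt
Elovl2: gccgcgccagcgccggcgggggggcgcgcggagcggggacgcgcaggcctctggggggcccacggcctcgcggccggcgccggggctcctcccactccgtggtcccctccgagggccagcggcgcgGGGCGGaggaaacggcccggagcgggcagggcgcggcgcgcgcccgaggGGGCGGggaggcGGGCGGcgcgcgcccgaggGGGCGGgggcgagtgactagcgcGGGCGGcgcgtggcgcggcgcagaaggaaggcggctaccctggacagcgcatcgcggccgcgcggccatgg

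The Elovl5 window held 1 E-box, at base -161, and 2 CCAAT boxes, at bases -71 and -17. The Fads2 window held 1 GC box, at base -186, and the Elovl2 window shown held 5 GC boxes. A second Elovl2 entry, at chr13:41220113-41220412 on the minus strand, held 0 E-boxes, 0 CCAAT boxes and 0 GC boxes. Of 32851 mouse promoter windows of the same length, 7.15% held an E-box, 37.4% a CCAAT box and 35.7% a GC box. Scd3, Scd4 and Elovl1 also had an entry in the table, and Scd1, Scd2, Fads1 and Elovl3 had none.

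Levels can be compared between the genes per kilobase of exon. On this scale Scd1 was highest, with a mean over the 67 livers of 664.2 CPM per kb, followed by Fads2 at 231.5, Elovl2 at 161.0, Elovl5 at 145.5 and Fads1 at 143.0 CPM per kb. Elovl1 at 12.3, Elovl3 at 1.97 and Scd2 at 1.19 CPM per kb were far lower, and Scd3 and Scd4 were near zero at 0.0129 and 0.0102 CPM per kb. The expression filter kept 8 of the 10 genes for testing, all but Scd3 and Scd4. All further CPM values are per gene, with no length correction.

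The first comparison asks what leucine-free food did to these transcripts after 1 day and after 8 days. Each tested gene had a lower estimate on leucine-free food in each of the 4 diet comparisons. In WT livers at day 1, 7 of the 8 tested genes were called lower, where 11.2% of all 16908 genes tested were called lower. In DKO livers at day 1, 8 of 8 were called lower, against 13.0% of all genes. At day 8, 5 of 8 were called lower in WT livers, against 2.87% of all genes, and 7 of 8 in DKO livers, against 9.51%. A gene was called at an adjusted p under 0.05 in edgeR's quasi-likelihood test with Benjamini-Hochberg adjustment over all genes tested. The median log2 difference of the 8 genes was -0.96 and -1.06 at day 1 and -0.88 and -1.26 at day 8 in WT and DKO livers, while the median of all genes tested lay between -0.004 and 0.023. In whole liver, fewer cells of a type and less RNA per cell cannot be told apart. At day 8 in WT livers, 3 genes were called without the expression filter and 2 with clock gene components in the model.

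**Figure D1:**
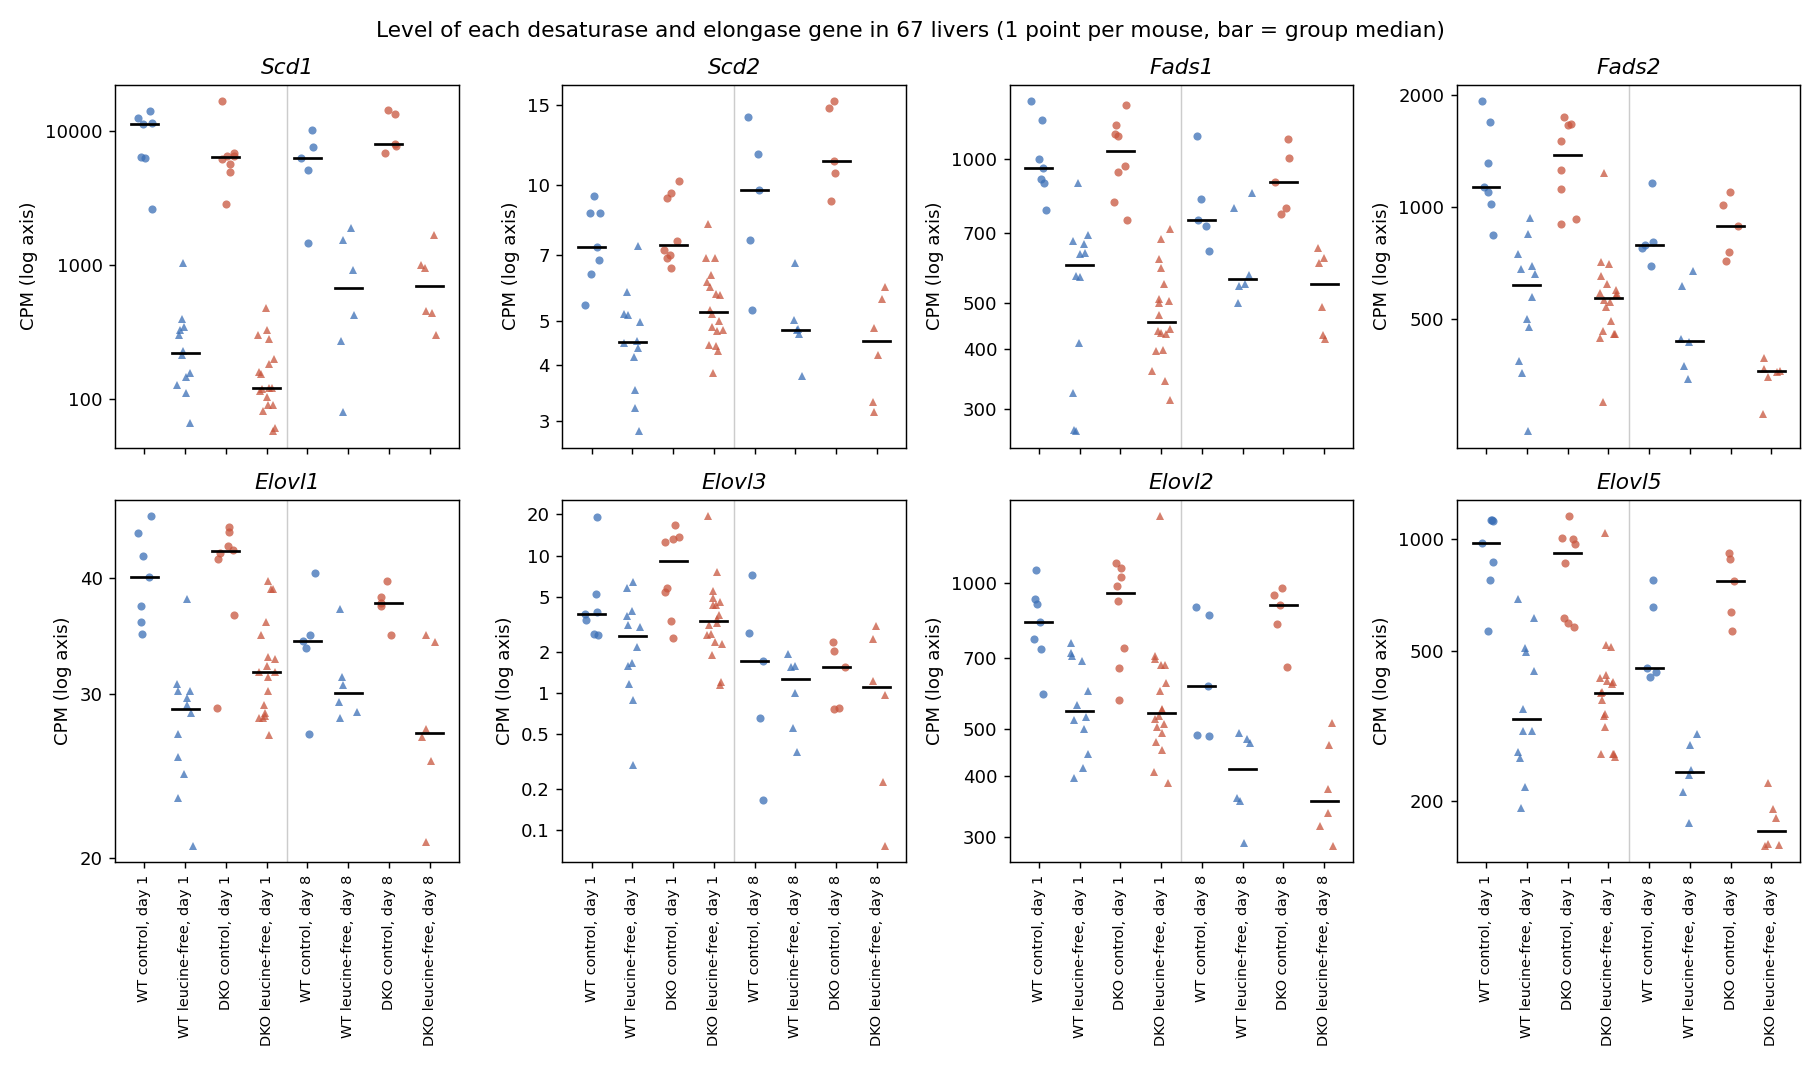
CPM (log axes) of the 8 tested genes in each of the 67 livers, by genotype, diet and day; circles are control and triangles leucine-free livers, WT in blue and DKO in red, and black bars are group medians. Scd1 medians lay at 6232 to 11184 CPM in the 4 control groups and at 121.2 to 704.1 CPM in the 4 leucine-free groups.

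**Figure D2:**
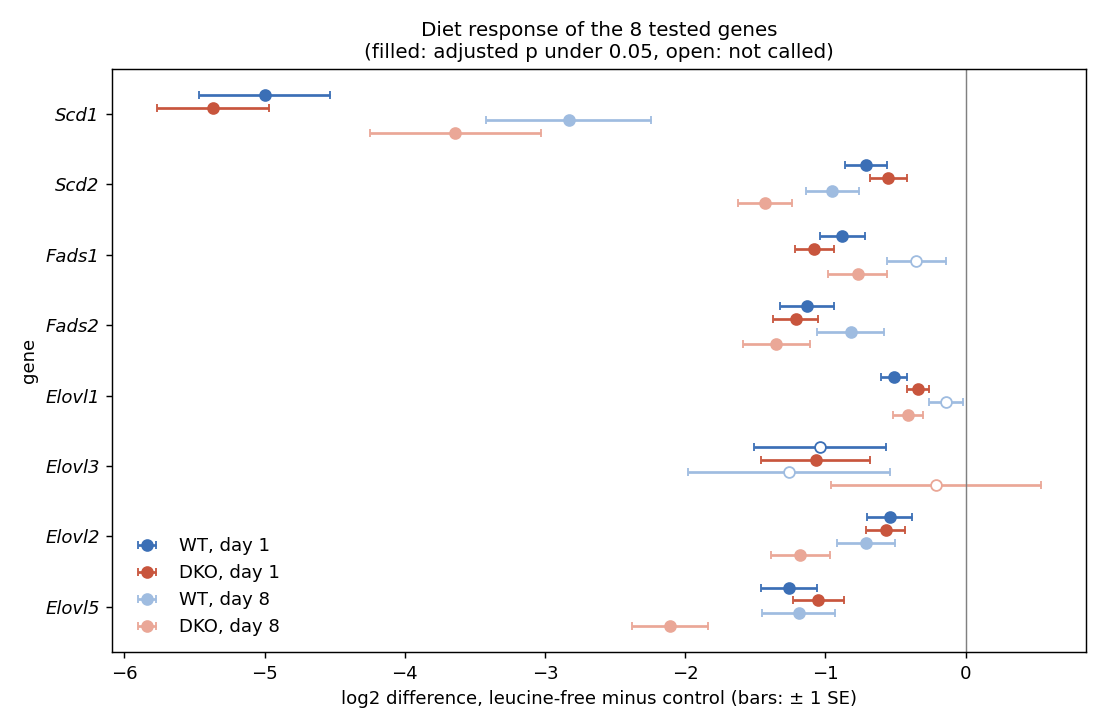
Log2 difference, leucine-free minus control, of the 8 tested genes in the 4 combinations of genotype and day, with bars of ± 1 SE; filled points passed an adjusted p under 0.05. The Scd1 difference lay between -5.37 and -2.83 on the log2 scale, and the other 7 genes had estimates between -2.11 and -0.14.

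Scd1 (ENSMUSG00000037071, GRCm38 chromosome 19, 44394455 to 44407879), the main stearoyl-CoA desaturase of liver, fell more than any other of the tested genes. At day 1 it ranged over 2627, 11184 and 14065 CPM (lowest, median, highest) in WT control livers and over 66.3, 222.2 and 1029 CPM in WT leucine-free livers. The DKO livers of day 1 ranged over 2856, 6335 and 16535 CPM on control food and over 58.1, 121.2 and 480.9 CPM on leucine-free food. Every leucine-free liver of day 1 lay below every control liver of its genotype. The fall was 32.0-fold in WT livers (log2 -5.0 ± 0.47 SE, adjusted p = 1.45e-12) and 41.3-fold in DKO livers (log2 -5.37 ± 0.40, adjusted p = 3.03e-17).

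After 8 days the 5 WT control livers held 5133, 1462, 10075, 6232 and 7609 CPM of Scd1, and the 6 WT leucine-free livers ranged over 80.6, 676.0 and 1896 CPM. The 5 DKO control livers held 13375, 7928, 7747, 14375 and 6820.0 CPM, and the 6 DKO leucine-free livers ranged over 301.6, 704.1 and 1678 CPM. The DKO groups were apart, and the WT groups overlapped because 2 leucine-free livers lay above the lowest control liver. Scd1 was 7.11-fold lower in WT (log2 -2.83 ± 0.59, adjusted p = 0.00171) and 12.5-fold lower in DKO livers (log2 -3.64 ± 0.61, adjusted p = 8.1e-06). Fitted on the compared groups alone, the WT value did not pass the threshold (log2 -2.83, adjusted p = 0.0535). The coefficient of variation of Scd1 lay between 35.2% and 88.8% over the 8 groups. In 3 groups it rested on 1 liver: it was 88.8% in WT leucine-free livers of day 1 and 49.5% without replicate 11, 58.1% in DKO control livers of day 1 and 24.6% without replicate 3, and 52.2% in WT control livers of day 8 and 29.3% without replicate 2.

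Scd2 (ENSMUSG00000025203, chromosome 19, 44293674 to 44306864), the isoform best known from brain, was low in liver and moved much less. Its levels at day 1 ranged over 5.43, 7.29 and 9.44 CPM in WT control and 2.85, 4.49 and 7.33 CPM in WT leucine-free livers. In DKO livers of day 1 they ranged over 6.56, 7.36 and 10.2 CPM on control food and 3.84, 5.22 and 8.17 CPM on leucine-free food. These ranges overlapped in both genotypes, although 10 of 12 WT and 15 of 18 DKO leucine-free livers lay below every control liver of their genotype. Scd2 fell at day 1 by 0.71 ± 0.15 on the log2 scale in WT (adjusted p = 0.000343) and by 0.55 ± 0.13 in DKO livers (adjusted p = 0.0011).

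The WT control livers of day 8 held 7.53, 9.73, 11.7, 14.1 and 5.28 CPM of Scd2, and the WT leucine-free livers ranged over 3.77, 4.78 and 6.72 CPM. The DKO control livers held 15.3, 10.6, 11.3, 14.8 and 9.21 CPM, and the DKO leucine-free livers ranged over 3.14, 4.52 and 5.93 CPM. The DKO groups did not overlap, and in WT the lowest control liver lay within the leucine-free range. The falls were 1.93-fold in WT (log2 -0.95 ± 0.19, adjusted p = 0.00114) and 2.69-fold in DKO livers (log2 -1.43 ± 0.19, adjusted p = 3.86e-08). Macrophage markers moved with diet at the same time: 4 of 10 were called lower in WT and 8 of 10 in DKO livers of day 8. Of all genes tested, 2.87% and 9.51% were called lower there. Their summed level was 608.5 to 799.8 CPM in WT control, 273.2 to 565.3 in WT leucine-free, 664.8 to 856.8 in DKO control and 171.8 to 701.5 CPM in DKO leucine-free livers of day 8. Their part in the Scd2 result was not tested.

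Scd3 (chromosome 19, 44203269 to 44244016) and Scd4 (chromosome 19, 44333092 to 44346743), copies of the same gene cluster, were close to the limit of detection, with at most 11 and 8 counts in a liver. Scd3 had 108 counts over 25 control livers, of which 21 held at least 1. It had 9 counts over 42 leucine-free livers, of which 3 held any, and 7 of the 9 came from DKO leucine-free replicate 6 of day 8. Set against the summed Scd1 and Scd3 counts of the same livers, Scd3 stood at 13.8 counts for each 1000000 (95% Clopper-Pearson interval 11.3 to 16.6) on control food and at 14.0 (6.41 to 26.6) on leucine-free food. The leucine-free value rested on the liver with 7 counts: without it 2 counts were left, or 3.3 (0.4 to 11.9). At this depth the proportion of Scd3 to Scd1 on leucine-free food could not be set more closely.

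Relative to Scd1, Scd4 behaved otherwise. It had 55 counts over the 25 control livers, of which 19 held at least 1. Over the 42 leucine-free livers it had 45 counts, and 16 of these livers held any. In DKO livers of day 8, 5 of 5 control and 2 of 6 leucine-free livers held a Scd4 count. For each 1000000 counts of Scd1 and Scd4 the pooled counts were 7.01 (5.28 to 9.12) on control and 70.0 (51.1 to 93.7) on leucine-free food. The gap differed between the days, with 5.03 (3.19 to 7.55) on control and 150.4 (105.3 to 208.1) on leucine-free food at day 1, and 9.77 (6.68 to 13.8) and 22.3 (10.2 to 42.4) at day 8. At day 1 the intervals of these pooled counts did not overlap. On leucine-free food 13 of 30 livers of day 1 held a Scd4 count. The 12 WT livers held 7 counts and the 18 DKO livers 29, or 61.0 and 232.6 for each 1000000 Scd1 counts. DKO replicates 12, 16, 17 and 18 held 5, 4, 7 and 7 of them. Intervals cover counting error only and leave out the variation between livers. PCR copies of a molecule cannot be told from separate molecules either. Whether Scd4 fell in proportion to Scd1 across livers was not tested.

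Fads2 (ENSMUSG00000024665, chromosome 19, 10062765 to 10101746) opens the conversion of linoleic and alpha-linolenic acid. Fads2 at day 1 ranged over 841.5, 1132 and 1927 CPM in WT control and 248.6, 616.2 and 931.9 CPM in WT leucine-free livers. In DKO livers of day 1 it ranged over 898.8, 1379 and 1751 CPM on control food and 298.7, 569.4 and 1236 CPM on leucine-free food. The ranges overlapped in both genotypes, in DKO only through leucine-free replicate 18. Fads2 fell 2.18-fold in WT (log2 -1.13 ± 0.19, adjusted p = 4.28e-06) and 2.31-fold in DKO livers (log2 -1.21 ± 0.16, adjusted p = 1.77e-08).

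At day 8 the WT control livers held 790.5, 774.1, 805.3, 1159 and 693.1 CPM of Fads2, above the WT leucine-free range of 343.9, 435.7 and 673.6 CPM. The DKO control livers held 1012, 713.4, 758.1, 1099 and 888.2 CPM, above the DKO leucine-free range of 276.5, 360.2 and 392.5 CPM. Neither genotype had an overlap at this time. The differences were -0.82 ± 0.24 on the log2 scale in WT (adjusted p = 0.0314) and -1.35 ± 0.24 in DKO livers (adjusted p = 2.3e-05). The WT call was lost without the expression filter (adjusted p = 0.0708) and with clock components in the model (log2 -0.61, adjusted p = 0.203). Leaving out replicate 4 of the controls, or replicate 2, 4, 5 or 6 of the leucine-free livers, also lost it, at adjusted p between 0.0571 and 0.118.

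Fads1 (ENSMUSG00000010663, chromosome 19, 10182888 to 10196877), which acts after the first elongation and yields arachidonic and eicosapentaenoic acid, lies on the same chromosome. At day 1 it ranged over 782.7, 955.9 and 1317 CPM in WT control and 269.6, 599.6 and 887.4 CPM in WT leucine-free livers. In DKO livers of day 1 it ranged over 742.8, 1040 and 1292 CPM on control food and 313.6, 454.9 and 714.1 CPM on leucine-free food. The DKO groups were apart, and 1 WT leucine-free liver, replicate 11, lay within the WT control range. Fads1 fell by 0.88 ± 0.16 on the log2 scale in WT (adjusted p = 3.84e-05) and by 1.08 ± 0.14 in DKO livers (adjusted p = 8.88e-09).

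After 8 days the WT control livers held 745.5, 722.1, 821.9, 1113 and 642.6 CPM of Fads1 and the WT leucine-free livers 499.0, 559.3 and 848.7 CPM (lowest, median, highest), with overlap. The WT difference of -0.35 (95% interval -0.77 to 0.06) was not called (adjusted p = 0.353). The DKO control livers held 1005, 790.1, 767.7, 1098 and 892.6 CPM, all above the DKO leucine-free range of 419.0, 547.7 and 648.9 CPM. In DKO livers Fads1 fell by 0.77 ± 0.21 (adjusted p = 0.00549). That Fads1 was called in DKO and not in WT livers does not show a difference between them, since the test of that difference gave -0.41 ± 0.30 (adjusted p = 0.755).

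Elovl5 (ENSMUSG00000032349, chromosome 9, 77917364 to 77984519) lengthens the polyunsaturated fatty acids that Fads2 has made. Its levels at day 1 were 566.9, 972.3 and 1122 CPM (lowest, median, highest) in WT control and 190.9, 329.9 and 690.6 CPM in WT leucine-free livers. In DKO livers of day 1 it ranged over 581.0, 914.9 and 1146 CPM on control food and 261.0, 388.5 and 1032 CPM on leucine-free food. All but 1 of the 18 DKO leucine-free livers and 10 of the 12 WT ones lay below every control liver of their genotype. The Elovl5 difference was -1.26 ± 0.20 on the log2 scale in WT (adjusted p = 2.71e-06) and -1.05 ± 0.18 in DKO livers (adjusted p = 4.85e-06).

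Elovl5 levels at day 8 were 656.7, 428.0, 440.0, 773.0 and 452.6 CPM in the WT control livers, above the WT leucine-free range of 174.6, 238.0 and 300.8 CPM. The DKO control livers held 884.6, 565.9, 636.3, 916.3 and 769.8 CPM, above the DKO leucine-free range of 151.6, 166.6 and 223.1 CPM. Diet groups did not overlap in either genotype. Elovl5 was 2.29-fold lower in WT (log2 -1.19 ± 0.26, adjusted p = 0.00296) and 4.31-fold lower in DKO livers (log2 -2.11 ± 0.27, adjusted p = 1.3e-08). With clock components in the model the WT value was -0.89 (adjusted p = 0.0521).

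Elovl2 (ENSMUSG00000021364, chromosome 13, 41182381 to 41220405) lengthens the longer polyunsaturated fatty acids on the way to docosahexaenoic acid. At day 1 it ranged over 589.1, 831.1 and 1063 CPM in WT control and 396.6, 544.8 and 751.6 CPM in WT leucine-free livers. In DKO livers of day 1 it ranged over 574.2, 951.5 and 1099 CPM on control food and 386.2, 539.4 and 1369 CPM on leucine-free food. The ranges overlapped in both genotypes, and the highest DKO liver of day 1 was a leucine-free one. Elovl2 fell by 0.54 ± 0.16 on the log2 scale in WT (adjusted p = 0.0113) and by 0.57 ± 0.14 in DKO livers (adjusted p = 0.00188). The DKO call was lost with clock components in the model (log2 -0.34, adjusted p = 0.075).

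In day 8 livers the WT controls held 855.9, 611.9, 484.4, 888.8 and 483.9 CPM of Elovl2 and the WT leucine-free livers 291.4, 413.6 and 490.0 CPM (lowest, median, highest), with a slight overlap. The DKO control livers held 943.6, 820.3, 670.8, 974.1 and 899.7 CPM, all above the DKO leucine-free range of 286.9, 355.6 and 512.7 CPM. Elovl2 fell by 0.71 ± 0.21 in WT (adjusted p = 0.0317) and by 1.18 ± 0.21 in DKO livers (adjusted p = 2.17e-05). The WT call was lost without the expression filter (adjusted p = 0.0701) and with clock components (log2 -0.44, adjusted p = 0.249). The same held without control replicate 1 or 4, and without leucine-free replicate 1, 4 or 5 of that genotype, at adjusted p between 0.0601 and 0.122.

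The clock components are the first 2 principal components of 17 clock genes, and they were added because clock output differed between livers. Dbp, a clock-controlled transcription factor of liver, ranged over 0.871, 3.20 and 52.0 CPM in WT control and 0.512, 1.17 and 1.59 CPM in WT leucine-free livers of day 8. The first component was 1.11 to 1.68 in WT leucine-free and -1.28 to 1.39 in WT control livers of day 8. It thus moved with diet, and the model cannot tell clock state and diet apart in these livers. Collection time is not stated, and its part in the WT day 8 results was not tested.

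Elovl1 (ENSMUSG00000006390, chromosome 4, 118428093 to 118432953), which lengthens saturated and monounsaturated very long chains, showed small differences. Its day 1 levels ranged over 34.8, 40.1 and 46.6 CPM in WT control and 20.6, 28.9 and 38.0 CPM in WT leucine-free livers, and over 29.0, 42.8 and 45.4 CPM and 27.1, 31.7 and 39.7 CPM in the same DKO groups. The ranges overlapped in both genotypes. The falls were 0.51 ± 0.09 on the log2 scale in WT (adjusted p = 1.24e-05) and 0.34 ± 0.08 in DKO livers (adjusted p = 0.000808). At day 8 the WT control livers held 34.2, 33.6, 40.5, 34.7 and 27.2 CPM and the WT leucine-free livers 28.3, 30.1 and 37.0 CPM, and the DKO groups 39.7, 37.3, 34.7, 37.6 and 38.2 CPM and 20.8, 27.2 and 34.7 CPM, again with overlap. The fall was then 0.41 ± 0.11 in DKO livers (adjusted p = 0.00697), and the WT difference of -0.14 (95% interval -0.36 to 0.09) was not called (adjusted p = 0.546). Elovl1 overlaps Cdc20 on the opposite strand (mean counts 1312.5 and 89.5 per liver), and how the counting treated strand was not stated. Cdc20 was 2.51 to 36.7 CPM in DKO control and 0.0478 to 1.03 CPM in DKO leucine-free livers of day 1, and its part in the Elovl1 fall there was not tested.

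Elovl3 (ENSMUSG00000038754, chromosome 19, 46131897 to 46135694), an elongase of saturated and monounsaturated chains known in mouse liver for its daily rhythm and its higher level in males, was low in all groups. At day 1 it ranged over 2.62, 3.76 and 19.1 CPM in WT control and 0.300, 2.58 and 6.44 CPM in WT leucine-free livers, and over 2.50, 9.15 and 16.8 CPM and 1.14, 3.36 and 19.3 CPM in the same DKO groups. The ranges overlapped in all diet comparisons. The difference of -1.07 ± 0.39 in DKO livers of day 1 passed the threshold (adjusted p = 0.0377) but did not under 6 of the alternatives, at adjusted p between 0.0516 and 0.247. The WT difference of -1.04 ± 0.47 at day 1 (adjusted p = 0.112) and the day 8 differences of -1.26 ± 0.72 in WT (adjusted p = 0.331) and -0.21 ± 0.75 in DKO livers (adjusted p = 0.884) were not called. Dbp spanned 1.25 to 131.3 CPM among the WT leucine-free livers of day 1, and its part in the Elovl3 levels was not tested.

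Group ranges without overlap were counted as a measure that does not use the model. Of the 10 genes, 1 was apart in WT at day 1 (Scd1), where 1.37% of genes tested had every leucine-free liver below every control liver. In DKO livers at day 1 there were 2 (Scd1 and Fads1), against 1.40% of genes tested. In WT livers at day 8 there were 2 (Fads2 and Elovl5), against 2.98%, and in DKO livers at day 8 there were 6 (Scd1, Scd2, Fads1, Fads2, Elovl2 and Elovl5), against 5.57%.

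The balance between pairs of genes was followed as the log2 ratio of their counts within a liver, which needs no scaling between libraries. Fads2 and Fads1, and Elovl5 and Elovl2, act in sequence, while Scd1 and Scd2 carry out the same step. These ratios were added after the values had been seen, and 12 tests were made, each an exact 2-sided permutation test over livers. The Fads2 to Fads1 ratio at day 8 was 0.06 ± 0.06 (SD, n = 5) in WT control and -0.42 ± 0.16 (n = 6) in WT leucine-free livers. The DKO livers of day 8 had -0.03 ± 0.07 (n = 5) and -0.60 ± 0.27 (n = 6). In both genotypes all leucine-free livers lay below all control livers, and the differences were -0.48 (exact p = 0.00216, adjusted over the 12 tests 0.00433) and -0.56 (exact p = 0.00649, adjusted 0.00974). At day 1 the ratio differed by -0.22 in WT (exact p = 0.104, adjusted 0.113) and by -0.13 in DKO livers (exact p = 0.191, adjusted 0.191), so no difference was shown there. Whether the ratio changed more at day 8 than at day 1 was not tested.

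The Elovl5 to Elovl2 ratio was lower on leucine-free food in all 4 comparisons. It went from 0.16 ± 0.35 to -0.63 ± 0.39 in WT livers of day 1 (exact p = 0.000675, adjusted 0.0027) and from -0.07 ± 0.30 to -0.56 ± 0.33 in DKO livers of day 1 (exact p = 0.00157, adjusted 0.00433). At day 8 it went from -0.27 ± 0.18 to -0.75 ± 0.23 in WT (exact p = 0.00866, adjusted 0.0115) and from -0.20 ± 0.20 to -1.11 ± 0.36 in DKO livers (exact p = 0.00216, adjusted 0.00433). The ranges overlapped in 3 of the 4 comparisons and were apart in DKO livers of day 8. Between the mice on control and those on leucine-free food, Elovl5 therefore differed by more than Elovl2, each liver giving 1 ratio.

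The Scd1 to Scd2 ratio differed by -4.47 on the log2 scale in WT and by -4.89 in DKO livers of day 1 (exact p = 1.98e-05 and 6.4e-07, adjusted 0.000119 and 7.68e-06), and by -2.36 in DKO livers of day 8 (exact p = 0.00433, adjusted 0.00742). In WT livers of day 8 it fell by 2.34 (exact p = 0.0238, adjusted 0.0286), with overlapping ranges. Without WT control replicate 1, 3 or 5 that last exact p lay between 0.0571 and 0.0619.

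**Figure D3:**
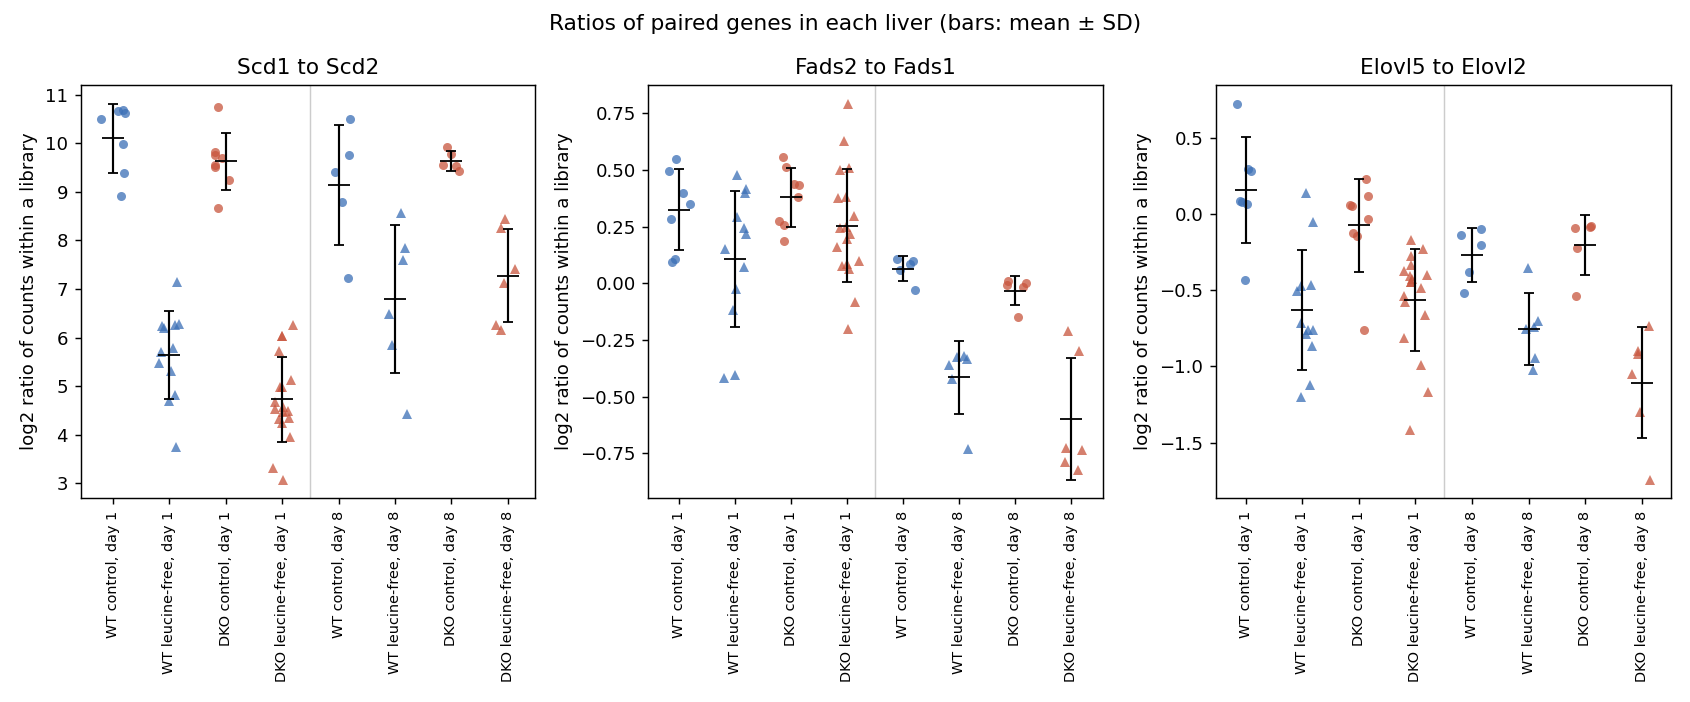
Log2 ratio of the counts of 2 genes within each liver, for Scd1 to Scd2, Fads2 to Fads1 and Elovl5 to Elovl2, by genotype, diet and day, with bars of mean ± SD; circles are control and triangles leucine-free livers. At day 8 the Fads2 to Fads1 ratios of leucine-free livers lay at -0.823 to -0.212, below the control range of -0.147 to 0.109 over both genotypes.

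The second comparison asks whether the genotypes differed. Of the 8 tested genes 0 were called in DKO against WT livers in any of the 4 comparisons, where 0.881% (control, day 1), 3.70% (leucine-free, day 1), 0.0532% (control, day 8) and 2.06% (leucine-free, day 8) of all genes were called in either direction. DESeq2 and limma also called 0 in each. At an unadjusted p under 0.05 there were 3 genes (Scd1, Scd2 and Elovl1) on leucine-free food at day 1, where 19.1% of all genes were, and 0 in control livers of day 1 and day 8 and leucine-free livers of day 8, where 5.27%, 6.39% and 14.1% of all genes were. Scd1 in leucine-free livers of day 1 had an estimate of -0.76 (95% interval -1.44 to -0.08, adjusted p = 0.213), DKO minus WT. In control livers Scd1 differed by -0.40 (-1.35 to 0.55) at day 1 and by 0.72 (-0.45 to 1.89) at day 8. Fads2 intervals were -0.34 to 0.47 on control and -0.31 to 0.27 on leucine-free food at day 1. Elovl1 on leucine-free food at day 1 differed by 0.20 (0.06 to 0.34, adjusted p = 0.108), and with scaling by total counts it was called at 0.23 (adjusted p = 0.049).

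In the test of the difference between the genotypes' diet responses 0 of the 8 genes were called at either day by edgeR, DESeq2 or limma, with 0.373% of all genes called in either direction at day 1 and 0.0414% at day 8. At an unadjusted p under 0.05 there was 1 gene, Elovl5 at day 8, where 8.91% of all genes were, and 0 at day 1, where 5.76% were. The DKO response at day 8 was the more negative for 7 of the 8 genes, without passing the test. The lowest adjusted p belonged to Elovl5, at -0.91 (95% interval -1.65 to -0.18, adjusted p = 0.413), and Elovl1 had -0.27 (-0.59 to 0.05). These intervals still allow a difference of up to 1.65 on the log2 scale for Elovl5.

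The third comparison asks whether the diet response at day 8 differed from that at day 1. In DKO livers 2 of the 8 genes were called, both with a larger fall at day 8, where 3.55% of all genes were called in that direction and 8.84% in either. The Elovl5 response was lower by 1.06 ± 0.32 on the log2 scale at day 8 (adjusted p = 0.0274) and the Scd2 response by 0.88 ± 0.23 (adjusted p = 0.0108). Scd1 had the opposite sign at 1.73 ± 0.70 (adjusted p = 0.115). Elovl5 was not called without the expression filter (adjusted p = 0.0595) or without DKO control replicate 1 or 4 of day 8 (-1.01 and -0.98, adjusted p = 0.0521 and 0.0619). Beside the Scd2 value, 6 of 10 macrophage markers had a lower response at day 8 as well, and their part was not tested.

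In WT livers 0 of the 8 genes were called by edgeR, DESeq2 or limma, against 1.64% of all genes in either direction, and 2 (Scd1 and Elovl1) had an unadjusted p under 0.05, as had 16.1% of all genes. The Scd1 response was smaller at day 8 by 2.17 (95% interval 0.73 to 3.61, adjusted p = 0.105), and it was called at 2.63 (adjusted p = 0.0396) without the 3 libraries that fitted the model worst. Those libraries came from replicates 11 and 12 of the WT leucine-free group of day 1 and from replicate 6 of the DKO leucine-free group of day 8.

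The livers of the larger leucine-free groups of day 1 differed among themselves. DKO leucine-free replicate 18 had the lowest Scd1 of its group (58.1 CPM) and the highest Fads1 (714.1), Fads2 (1236), Elovl2 (1369) and Elovl5 (1032 CPM). The other 17 livers reached at most 679.7, 709.0, 706.2 and 518.7 CPM for the last 4 genes. The summed adipocyte list, which is nearly all Cidec and Fabp4, was also highest there at 35.6 CPM against 6.38 to 15.2 CPM in the others. So were the summed lymphocyte (9.41 against at most 7.41), endothelial (495.1 against at most 491.3) and cholangiocyte markers (94.9 against at most 92.6 CPM), and the part of these cells was not tested. The defining fat cell genes Adipoq, Plin1 and Lep stayed at or under 0.288, 0.128 and 0.0171 CPM in all 67 livers. Without this liver all 8 genes were still called lower in DKO livers of day 1, with Elovl2 at -0.69, Elovl5 at -1.18 and Fads2 at -1.30. In the WT group replicate 11 had the highest Scd1 (1029 CPM), Fads1 (887.4), Fads2 (931.9) and Elovl5 (690.6 CPM) and the lowest Elovl3 (0.300 CPM). This liver too had the highest adipocyte (30.3 against 6.44 to 14.6 CPM), lymphocyte (11.1 against 2.34 to 7.07 CPM) and stellate sums (673.1 against 296.8 to 671.4 CPM) of its group, and their part was not tested.

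Within these groups Fads2 varied with Elovl5 and with Fads1, and Scd1 was not shown to vary with Fads2. Across 56 pairs over both groups, tested by permutation on log2 CPM, Fads2 and Elovl5 correlated at r = 0.917 (rho = 0.934, adjusted p = 0.00028 and 0.00056, permutation) in the 18 DKO livers and at r = 0.813 (rho = 0.790, adjusted permutation p = 0.0133 and 0.0333) in the 12 WT livers. Without the 2 livers farthest from the median of Fads2, r was 0.878 and 0.719. For every other pair the 2 livers left out were those farthest from the median of the gene named first. The raw permutation p of the DKO value, 1e-05, is the smallest that the permutations can give. Fads1 and Fads2 correlated at r = 0.797 in DKO (rho = 0.831, adjusted permutation p = 0.000933 and 0.00131) and at 0.860 in WT livers (rho = 0.790, adjusted permutation p = 0.0077 and 0.0333), or 0.711 and 0.708 without the farthest livers. Fads1 and Elovl5 correlated in DKO (r = 0.818, rho = 0.837, adjusted permutation p = 0.00028 and 0.00131, r = 0.766 without the farthest) but were not shown to in WT livers (r = 0.581, rho = 0.490, adjusted permutation p = 0.188 and 0.403).

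Scd1 and Fads2 gave r = -0.113 in DKO and 0.165 in WT livers (adjusted permutation p = 0.845 and 0.826). Scd1 and Elovl2 moved in opposite directions in DKO livers (r = -0.623, rho = -0.763, adjusted permutation p = 0.031 and 0.00546). The correlation was -0.732 without the 2 livers farthest from the median of Scd1, replicates 11 and 12. Replicate 18 was kept in that value. In WT livers that pair gave r = -0.121 (adjusted permutation p = 0.861), and the difference between the genotypes was not tested. Elovl2 and Elovl5 correlated at 0.721 in DKO livers, which rested on the farthest livers, since r was 0.188 without them. In WT livers that pair gave r = 0.802 (rho = 0.748, adjusted permutation p = 0.0198 and 0.0468), and 0.792 without the 2 farthest. Fads2 and Elovl2 gave r = 0.718 in WT livers (rho = 0.685, adjusted permutation p = 0.0473 and 0.107). In DKO livers they gave r = 0.655 (rho = 0.453, adjusted permutation p = 0.06 and 0.307). Scd2 and Elovl3, both low in liver, gave r = -0.802 in WT livers (rho = -0.755, adjusted permutation p = 0.0137 and 0.0468), and -0.541 without the 2 farthest. In DKO livers that pair gave r = -0.0227 (adjusted permutation p = 0.928).

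**Figure D4:**
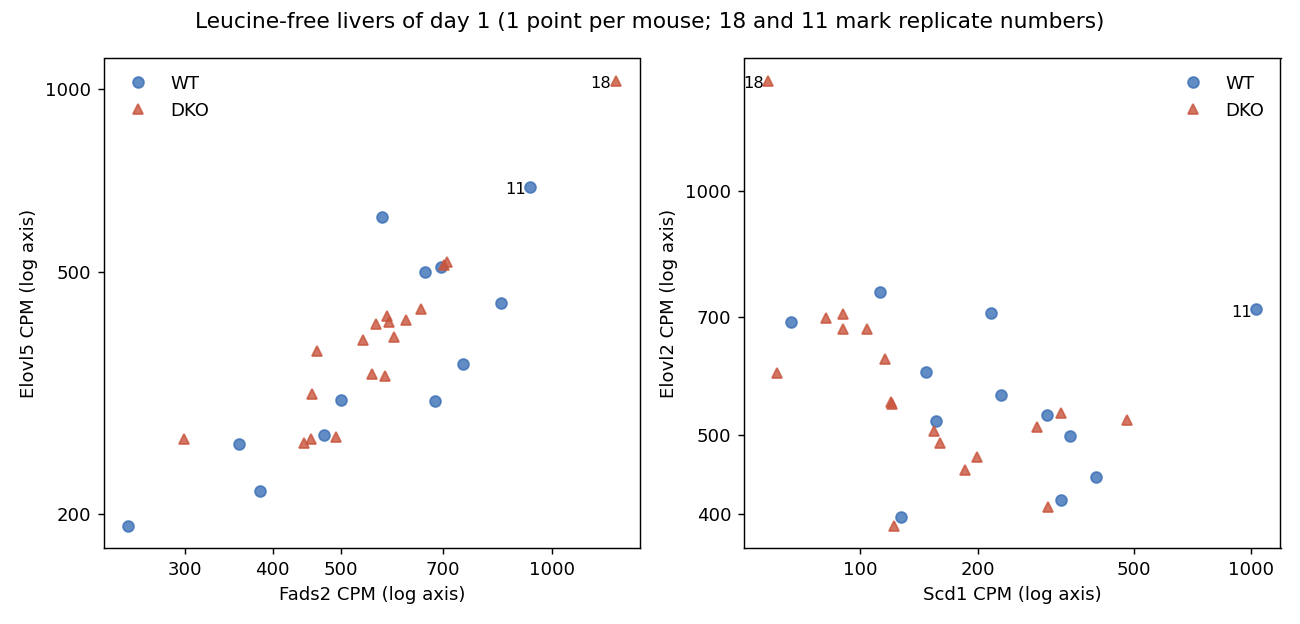
CPM (log axes) of Elovl5 against Fads2 (left) and of Elovl2 against Scd1 (right) in the leucine-free livers of day 1, 12 WT (circles) and 18 DKO (triangles); the numbers mark WT replicate 11 and DKO replicate 18. Elovl5 increases with Fads2 in both genotypes (r = 0.813 and 0.917), and DKO replicate 18 sits at 58.1 CPM of Scd1 and 1369 CPM of Elovl2.

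The other genes of the pathway were read against all genes tested. Of these, 11.2% in WT and 13.0% in DKO livers of day 1 were called lower on leucine-free food, and 2.87% and 9.51% at day 8. Called higher were 8.28% in WT and 10.5% in DKO livers of day 1, and 2.38% and 11.1% at day 8. Of 6 tested other elongase and desaturase genes, Elovl6, which lengthens palmitate to stearate and so supplies Scd1, was called lower in all 4 diet comparisons, at -3.34 ± 0.26 and -1.45 ± 0.34 on the log2 scale in WT at day 1 and day 8 and at -2.54 ± 0.22 and -2.99 ± 0.35 in DKO livers (adjusted p between 1.72e-15 and 0.00513). Degs1, a sphingolipid desaturase, was called higher in DKO livers of day 1 at 0.17 ± 0.06 (adjusted p = 0.0418). Elovl7, Fads3, Fads6 and Degs2 were not called in any of them, and the median of the 6 lay between -0.07 and 0.07.

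Of 9 genes for the other steps of the elongation cycle and for electron transfer to the desaturases, 4 were called lower in WT and 4 in DKO livers of day 1, 2 in WT and 5 in DKO livers of day 8, and 0 higher. The median log2 difference of the 9 genes was -0.31 and -0.32 at day 1 and -0.32 and -0.49 at day 8 in WT and DKO livers. Hsd17b12, the ketoacyl reductase that works with the elongases, fell by 1.03 ± 0.07 and 1.00 ± 0.06 at day 1 and by 0.57 ± 0.10 and 0.86 ± 0.10 at day 8 in WT and DKO livers (adjusted p between 1.07e-20 and 7.69e-05). Cyb5r3, the reductase that feeds electrons to the desaturases through cytochrome b5, fell by 0.97 ± 0.10 and 0.99 ± 0.09 at day 1 and by 0.49 ± 0.13 and 1.10 ± 0.13 at day 8 (adjusted p between 1.18e-14 and 0.014).

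Of 11 genes of fatty acid synthesis, 10 were called lower in WT and DKO livers of day 1, 7 in WT and 10 in DKO livers of day 8. Their median log2 difference was -3.0 and -2.59 at day 1 and -1.45 and -2.79 at day 8. Acly, which makes cytosolic acetyl-CoA, fell by 3.00 ± 0.23 and 2.63 ± 0.19 at day 1 and by 1.45 ± 0.29 and 2.79 ± 0.30 at day 8 in WT and DKO livers (adjusted p between 6.12e-18 and 0.001). Between the days 8 of the 11 had a smaller fall at day 8 in WT livers, among them Acss2 at 2.06 ± 0.46 (adjusted p = 0.0127). A smaller fall can come from either diet group. Fasn, another of the 8, had means of 3232 CPM at day 1 and 1320 CPM at day 8 in WT control livers. Its means in WT leucine-free livers were 285.2 and 465.0 CPM. The part of each diet group in the change was not tested. Of all 16908 genes tested, 146 were called in that direction. In DKO livers 0 of 11 were, and 894 of all genes. Whether this change between the days differed between the genotypes was not tested. For the difference between the genotypes' diet responses 0 of the 11 were called at either day, where 0.373% (day 1) and 0.0414% (day 8) of all genes were.

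Of 16 regulators, 3 were called lower and 4 higher in WT, and 3 lower and 2 higher in DKO livers of day 1, with medians of -0.04 and -0.10. The DKO counts were near the shares of all genes. The called regulators named here are all lower ones, and those called higher are left to the plot of pathway genes. Srebf1, which encodes SREBP-1, fell by 1.30 ± 0.22 in WT and 1.70 ± 0.19 in DKO livers of day 1 (adjusted p = 7.31e-06 and 9.8e-11). Insig1, a target and brake of SREBP processing, fell by 1.87 ± 0.27 and 2.53 ± 0.23 (adjusted p = 2.86e-07 and 8.73e-14). At day 8, 0 regulators were called in WT livers by edgeR, and 3 were higher and 2 lower in DKO livers. The lower ones were Insig1 at -1.27 ± 0.35 (adjusted p = 0.00581) and Scap, the escort of SREBP, at -0.60 ± 0.13 (adjusted p = 0.000342). Srebf1 itself was not called there, at -0.32 ± 0.28 (adjusted p = 0.469), with 210.9 to 417.9 CPM on control and 203.3 to 412.8 CPM on leucine-free food.

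Of 7 tested acyl-CoA synthetase genes, 3 were called lower and 2 higher at day 1 in each genotype, and their median lay between -0.08 and 0.01 over the 4 diet comparisons. Acsl5, a synthetase of liver and gut, was called lower in all 4 diet comparisons, by 1.28 ± 0.13 and 1.33 ± 0.11 at day 1 and 0.64 ± 0.16 and 1.44 ± 0.17 at day 8 (adjusted p between 5.43e-16 and 0.012). Slc27a2, a very long chain synthetase and transporter, rose by 1.23 ± 0.14 in WT and 1.09 ± 0.12 in DKO livers of day 1 (adjusted p = 1.36e-10 and 6.41e-11).

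**Figure D5:**
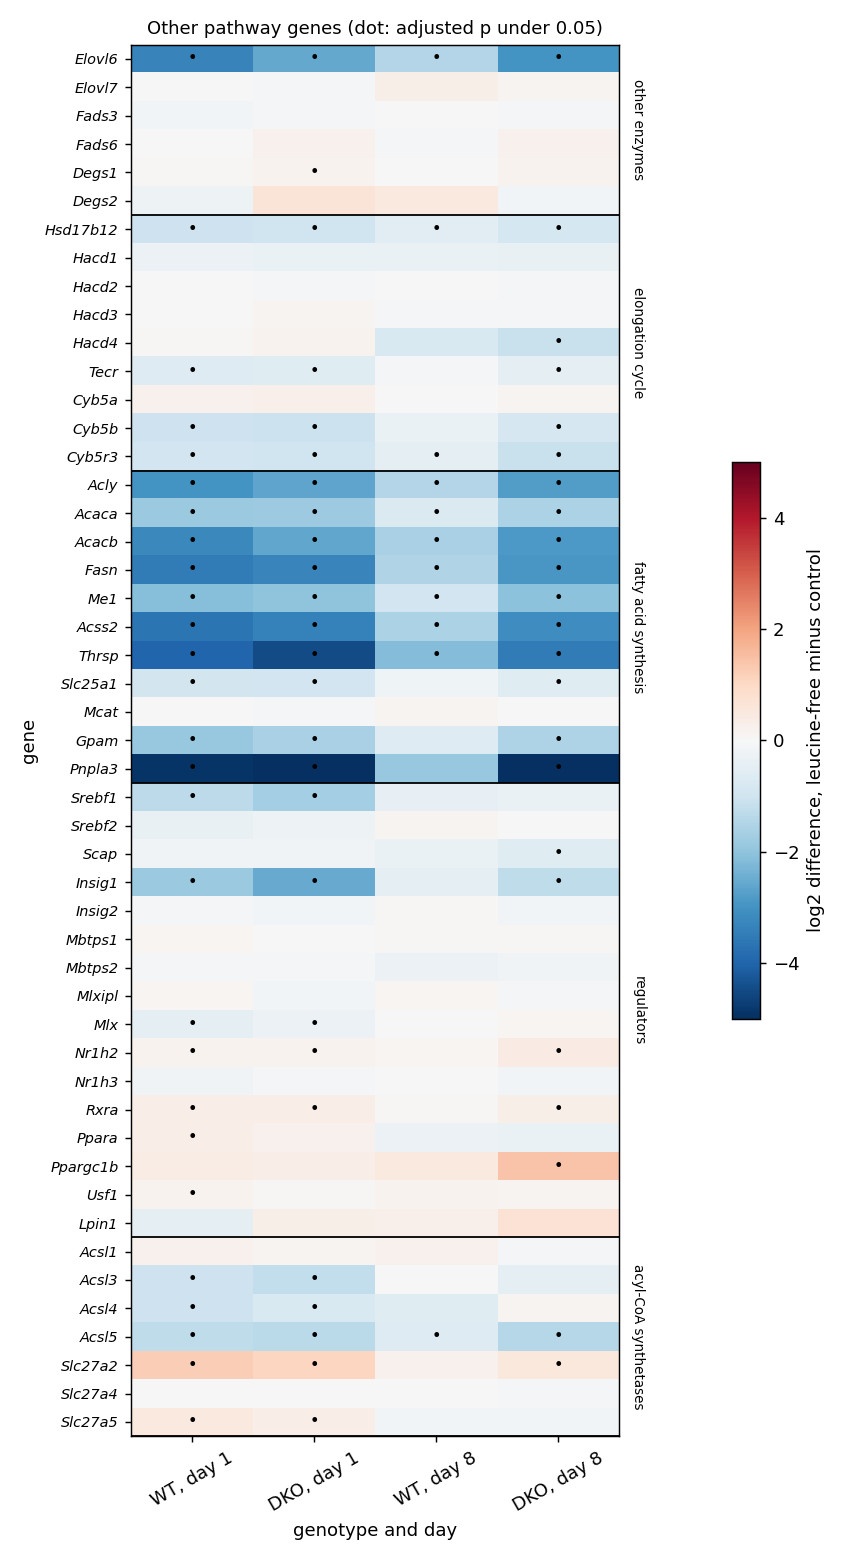
Log2 difference, leucine-free minus control, of the other tested pathway genes in 4 columns of genotype and day, grouped by list; blue is lower and red higher on leucine-free food, the scale ends at 5 in both directions, and dots mark an adjusted p under 0.05. Fatty acid synthesis genes hold most of the dark blue cells, with 10 of 11 called lower in 3 of the 4 columns.

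Genes whose log2 CPM followed a desaturase or elongase most closely over all 67 livers were listed among 9438 genes, as a description of libraries that share diet groups. For Scd1 they included Chrna4, a nicotinic receptor subunit (Pearson r = 0.945), and Rdh11, a retinol dehydrogenase (0.912). For Fads2 they were Acsl5 (0.845), Tmem135 (0.842) and Hsd17b12 (0.833). For Elovl3 they were Cyp7b1, an oxysterol hydroxylase that is higher in male mouse liver (0.780), Mup14, a major urinary protein whose counts are uncertain among near-identical copies (0.777), and Abcg2, an efflux transporter (0.764).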

How the data were processed

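The values are raw counts per gene, whole numbers that the authors deposited for each of the 67 livers. Named tools, per the submitters' processing notes, are featureCounts 2.0.1, STAR 2.7.1a and DESeq2 1.26.0, beside the builds mm10 and GRCm38, with roles not stated. Per the labels' protocols, liver RNA went into directional NEBNext libraries. All 55450 identifiers matched GENCODE M21 (GRCm38). In a series table, 67 sample columns were not used.

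Counts were scaled by TMM and fitted with edgeR 4.0.16 (R 4.3.3, quasi-likelihood, robust) as 8 group means over all libraries. Filtering kept 16908 genes and left out 38542, and 12 comparisons were made at an adjusted p under 0.05. Intervals are estimates ± 1.96 SE. The fit was tested on simulated counts. Replicates are separately numbered mice, and no pair agreed within sampling noise (lowest chi-square per degree of freedom 18.2). Ratios and pairs used label permutations in Python, with 100000 draws for pairs. Alternatives included DESeq2 1.42.0, limma 3.58.1 voom, 2 other scalings, 2 other filters and libraries left out, and the Scd1 spread and the Scd3 and Scd4 shares without single livers were added after the values were seen. The design names the 10 genes, per list and diet comparison up to 3 called genes of smallest adjusted p, and the 3 genes most like Scd1, Fads2 and Elovl3. Of these last, 1 gene is not reported here. Values for some of the genes so named are left to the plot of pathway genes. The genes and lists were chosen with earlier results of these data known.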

Additional observations from a re-analysis of the deposited data

Results flagged for a closer look

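Of 48 sets of values of a gene in a group of 5 to 8 livers, 4 held a liver far from the rest of its group. Chance gives about 1 in 20 if the values are normally distributed, and whether these CPM values were was not tested. Scd1 stood at 16535 CPM in DKO control replicate 3 of day 1, against 2856 to 6829 CPM in the other livers of the group. Fads2 stood at 1159 CPM in WT control replicate 4 of day 8, against 693.1 to 805.3 CPM. Elovl1 stood at 37.0 CPM in WT leucine-free replicate 1 of day 8, against 28.3 to 31.3 CPM. Elovl3 stood at 19.1 CPM in WT control replicate 1 of day 1, against 2.62 to 5.25 CPM, and the same liver held 47.5 CPM of Mup14, 320.2 CPM of Slco1a1 and 105.3 CPM of Dbp, each the highest of its group.

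The diet response differed between the days in DKO livers for Scd2, by -0.88 on the log2 scale (edgeR adjusted p = 0.0108), and for Elovl5, by -1.06 (adjusted p = 0.0274), both a larger fall at day 8.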

How the results depend on the processing

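Of 352 refits of the 29 called results of single genes under other settings, 336 kept the call, as did 152 of 164 with a day 8 library or DKO leucine-free replicate 18 of day 1 left out. In WT livers of day 8 the number of genes called went from 5 to 3 without the expression filter and to 2 with clock components, and to between 3 and 5 with a library left out, with 3 without WT control replicate 4 or WT leucine-free replicate 4 or 5. For genotype on leucine-free food at day 1 it went from 0 to 1 with total counts, which also moved the share of higher calls among all genes from 50.6% to 70.5%. For the day difference it went from 0 to 1 in WT livers without the 3 worst-fitting libraries, and in DKO livers from 2 to 1 without the filter and to between 1 and 2 with a library left out. Elovl2 joined the DKO calls of that test with clock components (-0.68, adjusted p = 0.047). With the mouse number as a replicate block, 1 gene was called for the day difference in WT (Scd1, 2.67) and 0 in DKO livers (Scd2 -0.65, adjusted p = 0.105; Elovl5 -0.89, adjusted p = 0.0774), and 7 in place of 8 for diet in DKO livers of day 1. Livers with the same number did not deviate together, with correlations from -0.31 to 0.263, so the number does not pair them. The genotype difference of Elovl3 on control food at day 8 was -0.88, and with a library left out between -1.17 and 0.17, the latter without WT control replicate 1; none was called. Causes of these shifts were not tested. Depth limits Scd3 and Scd4, with a median of 0 and 0.0215 CPM.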
